A study of Mus musculus with 30 samples.

Results

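The Pparg locus on mouse chromosome 6 was followed through 21 ATAC-seq libraries, in which reads pile up where chromatin is open to a transposase. Its members were the accessible windows (consensus peak regions counted by the study) that overlapped the Pparg gene body, or whose nearest start of a protein-coding transcript (TSS), within 50 kb of the window's midpoint, was a Pparg TSS. By this rule 64 of the 305931 windows of the 24 h experiment and 57 of the 369846 windows of the 4 h experiment belonged to Pparg. Positions are on mm10, the build named in the submitters' processing notes, with genes from GENCODE vM21 on the same assembly (GRCm38).

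Pparg encodes PPARγ, a ligand-activated nuclear receptor that binds DNA together with RXR and is known as the master regulator of fat cell formation. Marrow mesenchymal stem cells (MSCs) can become fat cells or bone-forming cells, and PPARγ drives the first of these fates through target genes for fatty acid uptake and lipid storage. The gene is read from separate promoters. The upstream promoter, P1, gives the widely expressed PPARγ1, and the downstream promoter, P2, gives PPARγ2, which has extra residues at its N terminus and is enriched in fat.

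The study asked how actin structure in the nucleus bears on chromatin accessibility. MSCs were marrow-derived and NIH3T3 cells are an established embryonic fibroblast line, and the labels give C57BL/6J and male for every library although NIH3T3 is known to come from Swiss mice. At 24 h, 3 libraries each came from untreated MSCs, MSCs with CK666, an inhibitor of the branched-actin nucleator Arp2/3, and MSCs with cytochalasin D (CytoD), which caps actin filaments. At 4 h, 3 libraries each came from untreated MSCs, MSCs with CK666, untreated NIH3T3 cells and NIH3T3 cells with CK666, and no group carried an engineered allele. MSC libraries were made from 50000 cells. Nothing in the labels says that replicates were separate cultures, so p-values measure the spread between these libraries, which may be technical.

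Libraries held 14071301 to 22352180 counts at 24 h and 14496058 to 34979833 at 4 h, and no library duplicated another. Values below are normalized counts, which are counts scaled to a common library size by TMM within each experiment, so levels were not compared between experiments. The stromal markers Pdgfra, Pdgfrb and Cxcl12 were open at their TSSs in MSCs. No window of the 24 h table covered the TSS of Thy1, Eng, Nt5e, Ly6a or Lepr. In the 4 h table Thy1 had a mean of 0.674 normalized counts in untreated MSCs against 70.1 in NIH3T3 cells, and Lepr 14.8 against 43.3. Of 8 macrophage and haematopoietic markers, 3 had a TSS window in both tables (Csf1r, Cd68 and Adgre1), while the leukocyte markers Ptprc, Spi1 and Itgam had none in either. Those of Csf1r, Cd68 and Adgre1 summed to 91.2 to 149 normalized counts in untreated MSCs, 97.4 to 105 with CK666 and 106 to 160 with CytoD at 24 h. At 4 h they summed to 229 to 326 in untreated MSCs and 201 to 238 with CK666. In NIH3T3 cells at 4 h the sums were 287 to 294 untreated and 307 to 368 with CK666. Endothelial markers had a TSS window for 2 of 4 genes at 24 h and 3 of 4 at 4 h, and osteoblast markers for 3 of 4 in both experiments.

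The gene runs on the plus strand over 129449 bp, chr6:115360951-115490399. P1 is its first base and P2 lies 61115 bp downstream at 115422066. Further coding starts lie 1341, 1398 and 22748 bp past P1. The nearest coding TSS upstream of the locus is that of Timp4, 108746 bp before P1. Of the 64 windows at 24 h, 13 were intergenic and upstream of P1, 1 contained P1, 24 lay between P1 and P2, 1 contained P2 and 25 lay past P2. The 4 h set had 12, 1, 19, 1 and 24 in the same order. Most windows were intronic, 45 at 24 h and 39 at 4 h. At least 1 base was shared between 41 windows of the 24 h set and 45 of the 4 h set, which leaves 23 and 12 that were found in 1 experiment alone.

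The sequences shown are the 250 bp upstream of P2 (chr6:115421816-115422065), the promoter of the fat-enriched isoform, the central 300 bp of the windows 2.6 kb (chr6:115424496-115424795) and 10.6 kb (chr6:115432488-115432787) past P2 that opened in MSCs at 24 h, and the central 300 bp of the window 21.2 kb before P2 (chr6:115400734-115401033) that opened in NIH3T3 cells at 4 h. All are plus strand of GRCm38, the P2 run comes from RefSeq's promoter table, and capitals mark matches, on either strand, to any of 11 motifs. The motifs were AP-1 (TGANTCA), C/EBP (TTGCNNAA), TEAD (GGAATG), RUNX (TGTGGT), NFI (TTGGCA), glucocorticoid receptor (ACANNNTGT), the aryl hydrocarbon receptor core (GCGTG), EBF (CCCNNGGG), the GC box (GGGCGG), the CArG box and the DR1 element, the usual site of PPARγ with RXR.
Upstream of P2: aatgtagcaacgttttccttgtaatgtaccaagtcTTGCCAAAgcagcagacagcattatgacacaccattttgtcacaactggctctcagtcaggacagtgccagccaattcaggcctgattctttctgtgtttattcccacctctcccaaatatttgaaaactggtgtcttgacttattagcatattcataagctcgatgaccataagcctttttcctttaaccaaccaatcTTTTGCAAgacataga
2.6 kb past P2: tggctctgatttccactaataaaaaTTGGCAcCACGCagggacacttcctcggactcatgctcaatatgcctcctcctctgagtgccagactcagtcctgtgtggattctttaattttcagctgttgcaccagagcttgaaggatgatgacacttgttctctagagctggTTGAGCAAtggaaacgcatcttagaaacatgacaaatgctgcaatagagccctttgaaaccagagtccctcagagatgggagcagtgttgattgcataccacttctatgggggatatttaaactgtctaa
10.6 kb past P2: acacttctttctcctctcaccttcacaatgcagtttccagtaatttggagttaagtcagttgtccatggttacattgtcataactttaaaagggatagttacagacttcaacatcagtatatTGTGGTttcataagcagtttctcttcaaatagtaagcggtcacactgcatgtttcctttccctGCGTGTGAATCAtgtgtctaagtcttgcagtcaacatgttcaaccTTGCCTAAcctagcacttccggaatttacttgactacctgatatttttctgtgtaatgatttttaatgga
21.2 kb before P2: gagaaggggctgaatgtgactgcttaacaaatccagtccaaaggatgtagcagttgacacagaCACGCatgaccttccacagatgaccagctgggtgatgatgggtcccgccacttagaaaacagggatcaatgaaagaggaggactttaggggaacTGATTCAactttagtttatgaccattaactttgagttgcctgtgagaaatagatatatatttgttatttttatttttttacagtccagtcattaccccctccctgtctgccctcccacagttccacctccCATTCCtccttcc

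The P2 run held 2 C/EBP matches, the first of which contains an NFI match on the other strand, and a C/EBP match occurs in 9.56% of the 32851 mouse promoters of the table over the same 250 bp. In the run 2.6 kb past P2, an NFI match, an aryl hydrocarbon receptor core and a C/EBP match were found. The run 10.6 kb past P2 held RUNX, an aryl hydrocarbon receptor core directly before an AP-1 match, and C/EBP. The run 21.2 kb before P2 held an aryl hydrocarbon receptor core, AP-1 and TEAD. Among all 64 windows at 24 h, C/EBP was matched in 14 (21.9%, against 14.2% of all windows), AP-1 in 14 (21.9% against 21.0%) and RUNX in 20 (31.2% against 27.7%). Other motifs were below the share of all windows. The aryl hydrocarbon receptor core was in 9.38% (against 15.3%), NFI in 15.6% (against 17.7%) and TEAD in 18.8% (against 19.9%). EBF was in 6.25% (against 10.2%) and the glucocorticoid receptor motif in 7.81% (against 10.4%). No Pparg window of either experiment matched DR1, which is in 0.270% of all windows at 24 h. These matches are letters in a window and not evidence of binding.

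Openness was uneven along the locus. In untreated MSCs at 24 h, 42 of the 64 windows had a mean under 30 normalized counts. Compared per kb of window, the most open was the one 57.5 kb past P2, in the last part of the gene, with 289 normalized counts per kb. A window over a coding exon 41.2 kb past P2 followed with 283, and the P1 window was behind 2 further windows, with 221. P2 was weak, at 48.1 normalized counts per kb. All 64 windows together held 2729 to 2853 normalized counts in the untreated libraries, 2498 to 2741 with CK666 and 2696 to 2941 with CytoD, so the ranges of both treatments overlapped the untreated one.

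**Figure D1:**
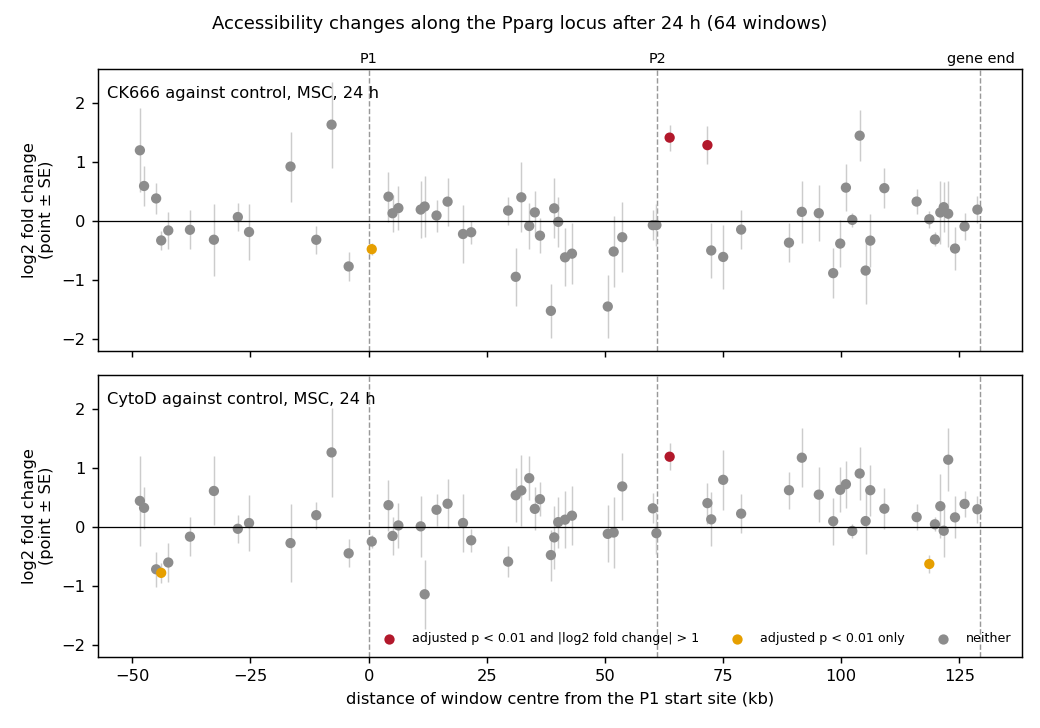
Log2 fold change (points, with SE) of each of the 64 Pparg windows with CK666 (top) and CytoD (bottom) against untreated MSCs at 24 h, by the distance of the window's midpoint from P1 in kb, with P1, P2 and the gene end marked by dashed lines. Red points passed both limits and orange points the p limit alone: with CK666 the red points are the windows 2.6 kb and 10.6 kb past P2, at 1.41 and 1.28, and P1 is the orange point at -0.48.

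With CK666 for 24 h, 2 of the 64 windows were called higher and 0 were called lower, where called means a Benjamini-Hochberg adjusted p under 0.01, over all windows of the table, in the quasi-likelihood test of edgeR, and a log2 fold change beyond 1. Over all tested windows, 1.88% were called higher and 1.06% lower, so 2 of 64 is close to the background. Both called windows lay in intron sequence past P2. An unadjusted p under 0.05 was found at 11 of the 64 windows (17.2%) and at 20.7% of all windows, and the median log2 fold change was -0.04 over the Pparg windows and 0.02 over all windows.

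The window 2.6 kb past P2 (chr6:115424354-115424936, 583 bp) held 35.1, 34.9 and 36.6 normalized counts in the untreated libraries. With CK666 it held 79.6, 107 and 97.3. All CK666 libraries lay above all untreated ones, with means of 94.6 ± 13.9 (SD, n = 3) and 35.6 ± 0.946. The difference was 2.66-fold, a log2 fold change of 1.41 (SE 0.22, edgeR adjusted p = 5.9e-07), and it was called in all 7 other settings and with each of the 9 libraries left out in turn. The part that more cells with the window open and a more open window per cell have in such a rise cannot be told apart in these libraries.

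The window 10.6 kb past P2 (chr6:115432346-115432929) held 20.8, 22.2 and 17.0 normalized counts without treatment and 64.6, 48.7 and 32.4 with CK666. The groups did not overlap, but the CK666 libraries spread over a wide range. The log2 fold change was 1.28 (SE 0.32, edgeR adjusted p = 0.0030). This call rested on few libraries: the adjusted p was 0.090 without CK666 replicate 1 (log2 fold change 1.0), 0.017 without CK666 replicate 2, 0.013 without control replicate 2 and 0.035 without control replicate 3, and DESeq2 gave 0.010, just past the limit.

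P1 was less open with CK666, within the fold limit. Its window (chr6:115360698-115362535, 1838 bp) also covers the coding starts 1341 and 1398 bp further on. It held 387, 382 and 449 normalized counts without treatment and 304, 255 and 317 with CK666. Every CK666 library lay below every untreated one. The level was 1.39-fold lower (log2 fold change -0.48, SE 0.10, edgeR adjusted p = 0.00041), which passed the p limit but not the fold limit. The adjusted p was 0.017 without CK666 replicate 2 and 0.012 without control replicate 3, while the log2 fold change stayed between -0.57 and -0.40 over all 9 libraries left out. Among the 16680 tested windows that contain a protein-coding TSS, the median log2 fold change was 0.03, 5.47% were lower than P1, and 1.86% were below 0 at an adjusted p under 0.01. P1 took 13.9 to 15.7% of the locus's counts without treatment and 10.2 to 11.7% with CK666.

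P2 was at low counts throughout. Its window held 37.7, 18.8 and 31.3 normalized counts without treatment, 29.0, 20.9 and 32.4 with CK666 and 35.6, 9.72 and 33.8 with CytoD. The 3 groups overlapped. The log2 fold changes against untreated MSCs were -0.07 with CK666 (SE 0.35, edgeR adjusted p = 0.94) and -0.11 with CytoD (SE 0.36, adjusted p = 0.90), and at these counts their sign turned when single libraries were left out. A window between P1 and P2, 22.5 kb before P2, came near the limits with CK666 at 10.3, 11.3 and 2.95 normalized counts against 26.0, 22.2 and 24.1 (log2 fold change -1.52, adjusted p = 0.020).

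**Figure D2:**
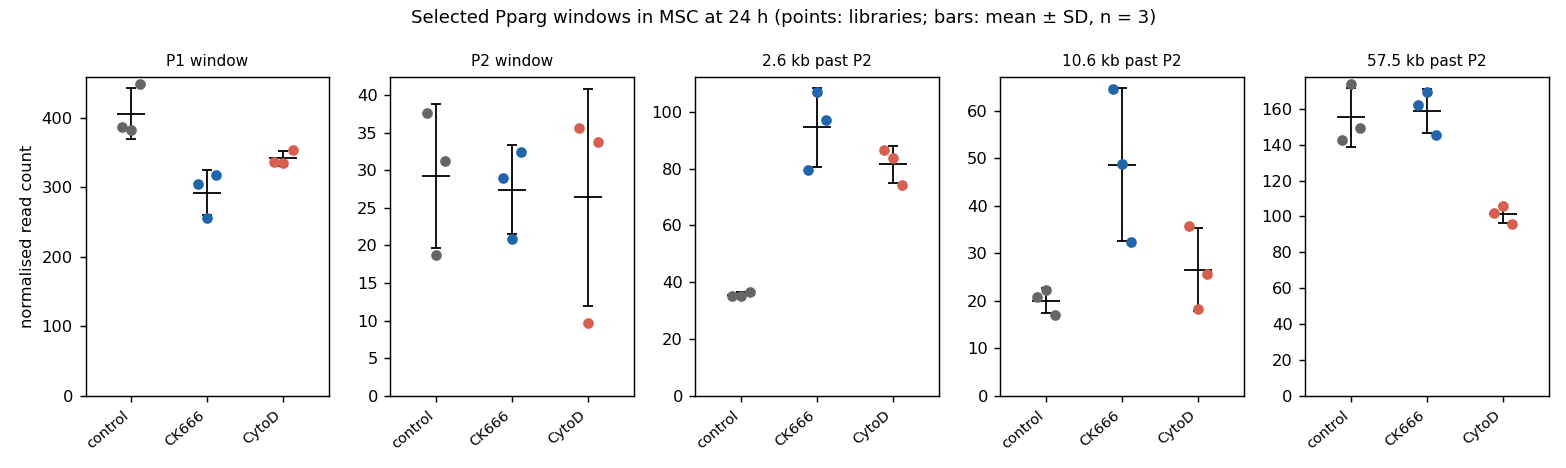
Normalized counts per library (points) with the mean and SD of each group at 5 Pparg windows in untreated, CK666-treated and CytoD-treated MSCs at 24 h; the y axis of each panel starts at 0. At the window 2.6 kb past P2 the CK666 libraries (79.6 to 107) and the CytoD libraries (74.1 to 86.5) sit above the untreated ones (34.9 to 36.6), and at P1 both treatments sit below them.

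CytoD for 24 h raised 1 window and lowered none past both limits. Over all windows 0.98% were called higher and 1.4% lower, and 9 of the 64 windows (14.1%) had an unadjusted p under 0.05, as had 22.6% of all windows. The median log2 fold change was 0.18 over the Pparg windows and 0.04 over all windows. The called window was again the one 2.6 kb past P2, at 86.5, 83.8 and 74.1 normalized counts, 2.28-fold above the untreated libraries that also served as the control for CK666 (log2 fold change 1.19, SE 0.23, edgeR adjusted p = 5.9e-05). All CytoD libraries lay above all untreated ones, and the call held in the 7 other settings and with each library left out. The window 10.6 kb past P2 held 35.6, 18.2 and 25.6 normalized counts with CytoD, overlapping the untreated libraries (log2 fold change 0.40, adjusted p = 0.53).

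At P1, CytoD gave 336, 335 and 354 normalized counts, all below the untreated libraries (log2 fold change -0.25, SE 0.10, adjusted p = 0.12). A pair of distal windows was lower with CytoD at an adjusted p under 0.01 and within the fold limit. The intergenic window 43.9 kb before P1 held 92.9, 88.7 and 91.4 normalized counts against 140.3, 139.8 and 187 without treatment (log2 fold change -0.78, SE 0.17, adjusted p = 0.00049). The window 57.5 kb past P2 held 102, 106 and 96.0 against 143, 174 and 149 (log2 fold change -0.63, SE 0.15, adjusted p = 0.0028). In neither window did the groups overlap. The summed TSS windows of the stromal markers were also lower with CytoD, at 1118 to 1202 normalized counts against 1256 to 1417 without treatment, and their part in these differences was not tested.

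Set against each other, CK666 was higher than CytoD at 1 of the 64 windows by both limits and lower at 0, with 2.14% and 1.14% of all windows called. An unadjusted p under 0.05 was found at 21 of the 64 (32.8%) and at 23.7% of all windows, and the median log2 difference was -0.20 over the Pparg windows and -0.03 over all windows. The called window, 45.0 kb before P1 (chr6:115315730-115316273), held 53.4, 41.8 and 61.9 normalized counts with CK666, 21.6, 24.3 and 26.5 with CytoD and 33.8, 45.2 and 40.2 without treatment. The CK666 and CytoD libraries did not overlap (log2 difference 1.10, SE 0.29, edgeR adjusted p = 0.0049). The call was lost in DESeq2 (adjusted p = 0.011), under scaling by total counts (0.011), and without CK666 replicate 1 (0.022), CK666 replicate 3 (0.050), CytoD replicate 1 (0.024), CytoD replicate 2 (0.017) or CytoD replicate 3 (0.014).

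Over all 64 windows the log2 differences ran from -1.48 to 1.38, and no other window passed both limits. The window 57.5 kb past P2 was higher with CK666, at 162, 169.7 and 145 normalized counts (log2 difference 0.66, SE 0.15, adjusted p = 0.0012). At 2.6 kb past P2 the log2 difference was 0.22 (SE 0.20, adjusted p = 0.54), at 10.6 kb past P2 it was 0.88 (SE 0.31, adjusted p = 0.053), and at P1 it was -0.23 (SE 0.11, adjusted p = 0.16). A difference of these sizes was not shown, and the SEs leave room for one.

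The clearest difference at the locus was between cell types. Of the 57 windows of the 4 h experiment, 18 were called higher in untreated MSCs than in untreated NIH3T3 cells (31.6%, against 18.3% of all windows) and 8 lower (14%, against 16.2%). The median log2 difference was 0.93 over the Pparg windows and -0.02 over all windows. The windows called higher included P1, P2 and 8 of the 19 between them, and of the windows called lower 2 lay upstream of P1, 2 between P1 and P2 and 4 past P2. All windows together held 3309 to 3727 normalized counts in MSCs and 2222 to 2391 in NIH3T3 cells. The TSS windows of 4 adipocyte markers summed to 424 to 467 in MSCs and 210 to 228 in NIH3T3 cells. The markers did not all go the same way. Means were higher in MSCs at Fabp4 (264 against 73.2), Cidec (97.3 against 9.72) and, at low counts, Adipoq (9.07 against 5.54). Plin1 was lower in MSCs (79.3 against 128).

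P1 was open in MSCs and had few reads in NIH3T3 cells. Its window (chr6:115360747-115361314) held 251, 273 and 211 normalized counts in MSCs and 2.16, 10.4 and 4.79 in NIH3T3 cells, a 39.6-fold difference (log2 5.31, SE 0.27, edgeR adjusted p = 5.8e-30). The neighbouring window 1.1 kb past P1 covers the coding starts 1341 and 1398 bp past P1. It held 280.2, 324 and 295 against 13.0, 13.0 and 7.66 (log2 difference 4.73, edgeR adjusted p = 3.4e-32). Among 16511 tested windows that contain a protein-coding TSS, 99.6% had a smaller log2 difference than P1, and their median was 0.32. The P1 window and the window 1.1 kb past it together took 15.3 to 16.0% of the locus's counts in MSCs and 0.541 to 0.980% in NIH3T3 cells.

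P2 was also more open in MSCs, by a smaller ratio. It held 70.0, 68.1 and 66.8 normalized counts in MSCs and 28.1, 20.8 and 25.8 in NIH3T3 cells (log2 difference 1.46, SE 0.27, edgeR adjusted p = 2.8e-06). The window 1.0 kb before P2 held 55.8, 53.1 and 66.8 against 2.16, 10.4 and 3.83 (log2 difference 3.33, adjusted p = 5.8e-12). No library of one cell type overlapped the other at these windows. The window 2.6 kb past P2 held 36.5, 54.1 and 12.1 against 6.48, 15.6 and 3.83, where MSC replicate 3 fell below the highest NIH3T3 library (log2 difference 1.93, adjusted p = 4.2e-05).

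**Figure D3:**
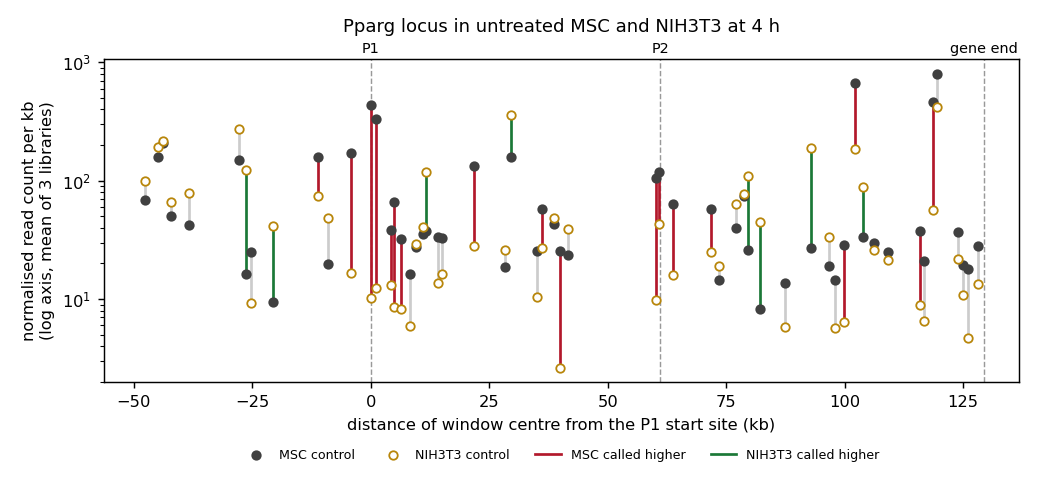
Mean normalized counts per kb of window (log axis, n = 3) in untreated MSCs (filled) and untreated NIH3T3 cells (open) at the 57 Pparg windows of the 4 h experiment, by distance from P1 in kb, with lines that join the cell types at each window. Red lines mark the 18 windows called higher in MSCs, the longest of them at P1, and green lines the 8 called higher in NIH3T3 cells.

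Other windows higher in MSCs lay along the whole gene. The intronic window 57.5 kb past P2 held 244, 285 and 252 normalized counts in MSCs and 31.3, 38.2 and 25.8 in NIH3T3 cells (log2 difference 3.02, edgeR adjusted p = 5.7e-26). Over the coding exon 41.1 kb past P2 the values were 409, 390.4 and 355 against 112, 111 and 97.6 (log2 difference 1.85). Both were among the most open windows of the gene in MSCs, and neither had overlapping cell types. The window 4.2 kb before P1 held 91.4, 97.1 and 81.9 against 6.48, 15.6 and 3.83 (3.32), and the one 21.7 kb past P1 held 191, 163 and 166 against 34.5, 41.7 and 33.5 (2.23). At 4.9 kb past P1 the values were 18.3, 48.1 and 41.5 against 1.08, 5.21 and 7.66 (2.88), a difference seen in every library in spite of low counts.

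Windows higher in NIH3T3 cells were fewer and distal. The window 31.8 kb past P2 held 83.1, 135 and 116 normalized counts in NIH3T3 cells and 15.2, 21.0 and 12.1 in MSCs (log2 difference -2.79, edgeR adjusted p = 1.7e-15). At 26.2 kb before P1 the values were 63.7, 62.5 and 66.0 against 8.12, 1.0 and 16.2 (-2.91, adjusted p = 1.0e-10). In both cases every NIH3T3 library lay above every MSC library. The window 18.4 kb past P2 held 58.3, 59.9 and 63.2 against 11.2, 18.0 and 13.1 (-2.09), and the one 29.5 kb past P1 held 181, 183 and 222 against 97.5, 88.1 and 70.8 (-1.19). This last window was among the 3 most open per kb in NIH3T3 cells, at 361 normalized counts per kb against 10.2 at P1.

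With CK666 for 4 h in MSCs, none of the 55 tested Pparg windows was called in either direction, against 0.59% of all windows called higher and 0.427% lower, and 7 windows (12.7%) had an unadjusted p under 0.05, as had 19.1% of all windows. The median log2 fold change was 0.20 over the Pparg windows and 0.001 over all windows. P1 held 243, 222 and 221 normalized counts with CK666, within the range of the untreated libraries (log2 fold change -0.11, SE 0.11, edgeR adjusted p = 0.67), and the window 1.1 kb past it held 357, 302 and 324 (0.12, adjusted p = 0.55). P2 held 43.0, 63.3 and 67.4, with 2 libraries below the untreated ones and the third within them (-0.24, adjusted p = 0.60). The 2 untested windows were below the filter on low counts.

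The window 2.6 kb past P2, called with both agents at 24 h, held 69.8, 55.7 and 59.3 normalized counts with CK666 at 4 h in MSCs, all above the untreated libraries. Untreated replicates spread from 12.1 to 54.1, and the log2 fold change of 0.84 did not pass (adjusted p = 0.034). Without control replicate 2 it was 1.33 (adjusted p = 0.0026), past both limits. The window 10.6 kb past P2 held 40.1, 36.3 and 46.7 against 33.5, 24.0 and 39.4, with overlap (0.34, adjusted p = 0.55). An intronic window 26.0 kb before P2 had a log2 fold change of 1.23 (adjusted p = 0.016), which was 1.51 (adjusted p = 0.0035) without CK666 replicate 3. The TSS windows of the adipocyte markers summed to 551 to 621 normalized counts with CK666 against 424 to 467 without, and their part in these values was not tested. At 24 h the sums overlapped, at 340 to 454 with CK666 and 327 to 385 without.

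**Figure D4:**
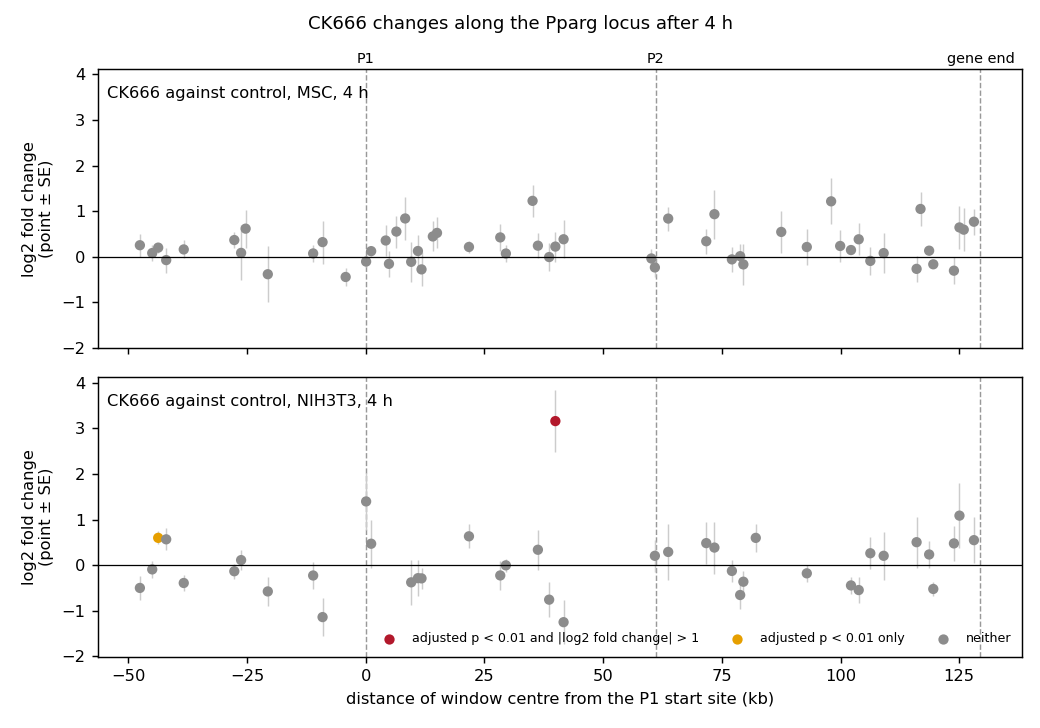
Log2 fold change (points, with SE) of CK666 against untreated cells after 4 h at the tested Pparg windows in MSCs (top) and in NIH3T3 cells (bottom), by distance from P1 in kb. Red points passed both limits and orange points the p limit alone: the red point, 21.2 kb before P2, is at 3.16 in NIH3T3 cells, where MSCs had 0.22, and no window passed both limits in MSCs.

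In NIH3T3 cells 41 of the 57 windows passed the filter on low counts, 1 was called higher with CK666 and 0 lower, against 1.87% and 1.67% of all windows, and 12 of the 41 (29.3%) had an unadjusted p under 0.05, as had 26.6% of all windows. The balance over all windows depended on the tool and on its settings: edgeR called 6216 higher and 5549 lower, and DESeq2 called 3194 higher and 4842 lower. Within edgeR it was 5627 and 6002 without the filter on low counts, and 4563 and 8592 with a GC offset. Under scaling by total counts it was 8022 and 3514. The paper reports more regions with increased than with decreased accessibility in these cells, and the cause of this difference was not tested. The median log2 fold change was -0.004 over the tested Pparg windows and 0.04 over all windows. The called window, in the intron 21.2 kb before P2 (chr6:115400445-115401322), held 2.16, 0 and 4.79 normalized counts without treatment and 24.6, 17.6 and 21.0 with CK666, from raw counts of 2, 0 and 5 against 16, 16 and 21. Every treated library lay above every untreated one. The log2 fold change was 3.16 (SE 0.68, edgeR adjusted p = 0.00056), and without control replicate 2, which had no reads there, it was 2.53 (adjusted p = 0.012), no longer called. The size of this fold rests on untreated counts close to 0. This window passed the filter on low counts only through the CK666 libraries, where it is high. A window as low in both groups would not have been tested.

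The same window held 27.4, 26.0 and 14.2 normalized counts in untreated MSCs and 33.4, 25.3 and 20.7 in MSCs with CK666, so the treated NIH3T3 libraries lay within the MSC range. Untreated MSCs were above untreated NIH3T3 cells there (log2 difference 3.25, adjusted p = 9.6e-07). The difference between the CK666 effects in the cell types was tested directly for all 57 windows. It was called lower in MSCs at 1 window, this one, and higher at 0, against 0.498% and 0.905% of all windows, and 12 of the 57 (21.1%) had an unadjusted p under 0.05, as had 17.8% of all windows.

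That difference was -2.91 on the log2 scale (SE 0.72, edgeR adjusted p = 0.0066), and it passed the p limit with only 4 of the 12 libraries left out in turn. The adjusted p was 0.019 and 0.022 without MSC CK666 replicates 2 and 3, 0.026 and 0.023 without MSC control replicates 1 and 2, 0.015 and 0.018 without NIH3T3 CK666 replicates 1 and 3, and 0.020 and 0.050 without NIH3T3 control replicates 1 and 2. At P1, NIH3T3 cells held 24.6, 4.39 and 19.0 normalized counts with CK666, overlapping the untreated 2.16 to 10.4 (log2 fold change 1.40, adjusted p = 0.13). Its difference from the effect in MSCs was -1.42 (adjusted p = 0.066), and -1.83 (adjusted p = 0.0052) without NIH3T3 CK666 replicate 2, which is past both limits.

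The window 43.7 kb before P1 held 245, 228 and 235 normalized counts in untreated MSCs and 245, 247 and 242 in untreated NIH3T3 cells. It held 299, 440.4 and 351 with CK666 in NIH3T3 cells (log2 fold change 0.60, SE 0.14, adjusted p = 0.0015), within the fold limit. P2 in NIH3T3 cells held 35.3, 27.5 and 23.0 with CK666, overlapping the untreated libraries (log2 fold change 0.21). The window 2.6 kb past P2 held 10.7, 15.4 and 6.01 (0.29, adjusted p = 0.81).

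**Figure D5:**
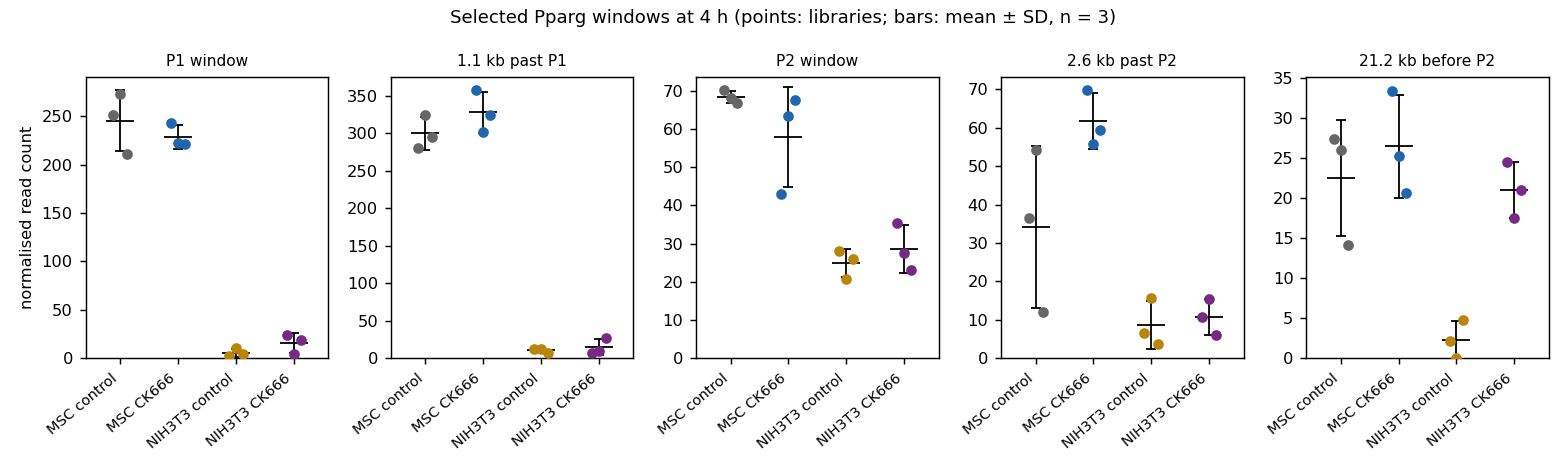
Normalized counts per library (points) with the mean and SD of each group at 5 Pparg windows in MSCs and NIH3T3 cells, untreated or with CK666 for 4 h; the y axis of each panel starts at 0. P1 and the window 1.1 kb past it are high in all 6 MSC libraries and low in all 6 NIH3T3 libraries, and at 21.2 kb before P2 the untreated NIH3T3 libraries (0 to 4.79) sit below the other 3 groups.

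The responses of matched windows at 24 h and 4 h were set side by side. For 46 pairs of overlapping windows in MSCs, 29 had the same sign of CK666 effect, with Pearson's r of 0.23 and Spearman's rho of 0.27 across windows, which share libraries and are not independent. These are weak correlations of mostly low counts and are given as a description.

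Pparg acts with a circle of other genes, for which windows were assigned by the same rule to 49 genes in 5 lists. With CK666 at 24 h, 35 of their 1445 tested windows were called higher (2.42%) and 13 lower (0.900%). With CytoD the numbers were 16 (1.11%) and 19 (1.31%), with CK666 at 4 h 17 (1.32%) and 3 (0.232%) of 1292 in MSCs, and 26 (1.91%) and 15 (1.10%) of 1363 in NIH3T3 cells. All of these stand beside the background shares given above.

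Among 14 target genes of PPARγ, with 190 tested windows, 9 windows were called higher with CK666 at 24 h (4.74%, against 1.88% of all windows). These lay at Angptl4, Cd36, Fabp5, Lpl, Plin1, Plin2 and Slc27a1, and 1 window was lower (0.526%, against 1.06%), at Plin2. The higher windows include TSS windows of Cd36, a fatty acid transporter (log2 fold change 1.47, edgeR adjusted p = 0.0015), and of Plin1, which coats lipid droplets (1.51, adjusted p = 0.00077). Another Plin1 TSS window, with more counts (means of 55.5 untreated and 76.7 with CK666), was not called. The lower window also contained a TSS of Plin2 (-1.02, adjusted p = 7.6e-07). The largest rise was 13.9 kb from the TSS of Lpl, the lipase that frees fatty acids from lipoproteins (2.78, adjusted p = 6.2e-07). With CytoD, 7 were higher (3.68%, against 0.98%), at Acsl1, Adipoq, Lipe, Lpl and Plin1, and 2 lower (1.05%, against 1.4%), at Fabp4 and Plin2. With CK666 at 4 h in MSCs, 6 of 193 were higher (3.11%, against 0.59%) and 0 lower (against 0.427%). The higher ones included the TSS window of Adipoq, the fat cell hormone adiponectin (2.05, adjusted p = 1.9e-05). In NIH3T3 cells 2 of 173 were higher (1.16%, below the 1.87% of all windows), both at Fabp4, the fatty acid binding protein of fat cells. There 0 were lower (against 1.67%).

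Of the 16 regulators that promote Pparg or fat cell formation, 16 of 662 windows were higher (2.42%, against 1.88% of all windows) and 6 lower (0.906%, against 1.06%) with CK666 at 24 h. With CytoD 5 were higher (0.755%, against 0.98%) and 11 lower (1.66%, against 1.4%). At 4 h in MSCs 8 of 577 were higher (1.39%, against 0.59%) and 1 lower (0.173%, against 0.427%), including a window 3.5 kb from the TSS of Cebpa, the factor that works with PPARγ in fat cells (log2 fold change 1.63, edgeR adjusted p = 3.7e-18). In NIH3T3 cells 14 of 625 were higher (2.24%, against 1.87%) and 9 lower (1.44%, against 1.67%).

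The 11 repressors, such as Runx2 and Wwtr1, are read against the same background shares. Of all windows, 1.88% were called higher and 1.06% lower with CK666 at 24 h, and 0.98% and 1.4% with CytoD. With CK666 at 4 h the shares were 0.59% and 0.427% in MSCs, and 1.87% and 1.67% in NIH3T3 cells. With CK666 at 24 h, 7 of their 392 windows were higher (1.79%) and 4 lower (1.02%), and with CytoD 2 were higher (0.510%) and 4 lower (1.02%). At 4 h, 1 of 348 was higher (0.287%) and 2 lower (0.575%) in MSCs, and 9 of 368 were higher (2.45%) and 3 lower (0.815%) in NIH3T3 cells. The 6 coactivators had 143 tested windows at 24 h, of which 3 were higher (2.10%) and 2 lower (1.40%) with CK666, and 1 higher (0.699%) and 2 lower (1.40%) with CytoD. At 4 h they had 2 of 140 higher (1.43%) and 0 lower in MSCs, and 1 of 164 higher (0.610%) and 3 lower (1.83%) in NIH3T3 cells. Windows of the paralogs Ppara and Ppard were not called with CK666 in any of the 3 comparisons. With CytoD, 1 of their 58 windows, at Ppard, was higher (1.72%, against 0.98% of all windows).

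The promoters most like P1 were sought among 11436 promoter windows that averaged 50 or more normalized counts in both tables, by the lower of its correlations with P1 on the log2 scale over the 9 libraries at 24 h and over the 12 at 4 h. The 5 most alike were those of Zbtb7a, a transcription factor (lower r 0.919), Rtn3, a protein of the endoplasmic reticulum (0.916), Bicc1, an RNA-binding protein (0.915), Itgb5, an integrin subunit (0.915), and Pla1a, a phospholipase (0.911). They were chosen for this likeness over these same libraries, so what they share with P1 between groups follows from the choice. Correlation ignores size: untreated MSCs and NIH3T3 cells had means of 1367 and 881 at Zbtb7a, against 245 and 5.79 at P1. Smaller steps were not all shared. With CK666 at 4 h in MSCs, Zbtb7a went from 1367 to 1421 and P1 from 245 to 229, while Rtn3, Bicc1, Itgb5 and Pla1a fell as P1 did. The P2 window was under the minimum, with means of 27.7 and 44.9 normalized counts, and was not ranked.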

How the data were processed

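The authors ran the PEPATAC pipeline on the reads, with bowtie2 for alignment and MACS2 for peaks, and took the union of peaks over a condition's replicates as consensus windows. They deposited raw read counts per window and library in 2 tables, without normalization. Versions of these tools were not given in the sources used here. The labels name mm10, and no window passed a GRCm38 chromosome end. The 9 columns of siRNA-transfected MSCs were left out, and 21 were used. Window totals are the depth of each library, and intervals were not built from counts.

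Counts were tested with edgeR 4.0.16 (R 4.3.3) by quasi-likelihood with TMM scaling, the default filter on low counts and adjustment over all windows. The 9 libraries at 24 h were fitted together, the 6 of each cell type at 4 h alone, and all 12 for the baseline difference and the interaction. The scripts were tested on simulated data. Alternatives used DESeq2 1.42.0, other scalings and filters, a GC offset, a replicate block, other member rules and each library left out. Tables were made with Python 3.11.15, numpy 2.4.6 and pandas 2.3.3, and figures with matplotlib 3.10.9.

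The rule named the windows containing P1 or P2 and, of the windows called in any of the 7 comparisons, up to 12 by smallest adjusted p. All 12 came from the comparison of cell types. The windows 2.6 and 10.6 kb past P2, 45.0 and 43.9 kb before P1, 57.5 kb past P2 at 24 h, 21.2 and 22.5 kb before P2 and the windows near the limits were chosen after their values were seen. Gene lists and members were chosen with earlier results of these data known. In the lists, a window belongs to the gene with the nearest coding TSS.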

Additional observations from a re-analysis of the deposited data

Results flagged for a closer look

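The effect of CK666 after 4 h differed between the cell types at the intronic window 21.2 kb before P2. The log2 effect in MSCs minus that in NIH3T3 cells was -2.91 (SE 0.72, edgeR adjusted p = 0.0066), from log2 fold changes of 0.22 in MSCs and 3.16 in NIH3T3 cells. The counts behind it in untreated NIH3T3 cells were 2, 0 and 5 reads. In the fit of NIH3T3 cells alone, the window passed the filter on low counts only through the CK666 libraries.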

How the results depend on the processing

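The 2 calls at 24 h of the window 2.6 kb past P2 and all 12 named differences between cell types kept direction and side of the limits in every alternative run. With CK666 at 24 h, 1 window was called higher in DESeq2 and 1 to 2 with each library left out, and 1 was lower with no fold limit. With CytoD 2 were lower with no fold limit. For CK666 against CytoD, 0 were higher under total counts, DESeq2 or the 20 kb member rule, 2 with no fold limit and 0 to 1 with libraries left out. At 4 h, 0 to 1 were higher in MSCs and 0 to 1 in NIH3T3 cells with libraries left out, and 2 in NIH3T3 cells with no fold limit. The cell types differed at 16 to 18 windows higher and 7 to 10 lower with libraries left out. The interaction was called at 0 windows under the GC offset (adjusted p = 0.012 at 21.2 kb before P2), at 0 in the replicate block, and at 0 to 2 with libraries left out; DESeq2 gave no adjusted p there. At P2 at 24 h, where no difference passed, the sign turned: for CK666 against control to 0.08 and 0.11 (range -0.35 to 0.11 with libraries left out), for CytoD to 0.06 and 0.25 (-0.38 to 0.25), and for CK666 against CytoD to -0.045 under total counts and to -0.003, -0.10 and -0.33 (-0.33 to 0.29). The cause was not tested.

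Replicate numbers did not pair the libraries, since deviations of same-numbered libraries correlated between -0.07 and 0.03 in the treatment comparisons. The replicate block gave -2.94 (adjusted p = 0.012) for the interaction at 21.2 kb before P2 and changed no other call of a named window. Counts under 30 in most windows limit what could be detected.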
